A study of Mus musculus with 6 samples.

Results

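In neural stem cells (NSCs) of the mouse, 954 promoter peaks of H3K4me3 lay wholly inside a single peak of H3K27me3. They were the members of a class defined by 3 conditions: a deposited NSC H3K4me3 peak under 5000 bp wide, within 1000 bp of a gene start, with both ends inside 1 deposited NSC H3K27me3 peak, here called its domain. The members made up 9.11% of the 10473 NSC H3K4me3 promoter peaks under 5000 bp and 3.14% of all 30416 NSC H3K4me3 peaks. The remaining promoter peaks of that width were 367 that straddled a domain edge and 9152 that touched no H3K27me3 peak. Membership was set by NSC signal for both marks, so the NSC values below are a description. No neuronal peak was itself a condition of the rule. Start sites, however, came from the gene tables of all 4 libraries, those of neurons included, which lean towards genes near peaks. A neuronal peak could thus bring in a start site and with it a member. The effect of this on the shares in neurons was not tested.

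Both cell types were of C57BL/6 mouse origin. The NSCs came from embryonic stem cells, were at passages 25 to 30, were taken at day 0 of differentiation and were RedStar negative. The neurons were made from these NSCs, were taken at day 11 and were sorted as RedStar positive, the red reporter being driven by the Tau promoter, so the sort selects cells by activity of an early neuronal gene. Each cell type gave 1 H3K4me3 library, 1 H3K27me3 library and 1 input, with the study's design giving n = 1, so no difference below has a replicate check and no test was made.

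H3K4me3 is a mark of the start sites of active or poised genes, and H3K27me3 is laid down by Polycomb repressive complex 2 over silent developmental genes. Promoters that carry both marks are called bivalent, and in stem cells they are known for holding lineage regulators in a state that can resolve to either mark on differentiation. Overlapping peaks from a cell population do not show that both marks sat on the same nucleosome, allele or cell.

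The following 6 promoters stand for the outcomes described below. Shown are the 250 bases upstream of the start site in RefSeq on GRCm38.p6, which is not the mm9 build of the peaks, so these sequences were not placed inside the mm9 intervals. Capitals mark CG dinucleotides, the sites of DNA methylation, which are dense in the CpG islands that Polycomb and H3K4 methyltransferases are known to occupy. Kif26b kept both marks in neurons, Eomes kept H3K27me3 alone, Erbb4 kept H3K4me3 alone and Acbd7 had neither over its peak. Hoxd9 and Hoxd8 lay in the same domain and differed in outcome.
Kif26b, chr1:178528875-178529124, plus strand: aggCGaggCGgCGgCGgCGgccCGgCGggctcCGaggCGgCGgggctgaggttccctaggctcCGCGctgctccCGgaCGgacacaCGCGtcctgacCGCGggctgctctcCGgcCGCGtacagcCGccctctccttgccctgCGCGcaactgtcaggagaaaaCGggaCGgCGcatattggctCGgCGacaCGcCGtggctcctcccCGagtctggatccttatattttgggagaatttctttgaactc
Eomes, chr9:118477939-118478188, plus strand: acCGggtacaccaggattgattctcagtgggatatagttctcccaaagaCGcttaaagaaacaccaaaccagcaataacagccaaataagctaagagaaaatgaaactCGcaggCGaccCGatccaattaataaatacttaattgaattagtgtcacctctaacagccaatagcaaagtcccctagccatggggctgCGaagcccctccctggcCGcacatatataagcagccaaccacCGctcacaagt
Erbb4, chr1:69108060-69108309, minus strand: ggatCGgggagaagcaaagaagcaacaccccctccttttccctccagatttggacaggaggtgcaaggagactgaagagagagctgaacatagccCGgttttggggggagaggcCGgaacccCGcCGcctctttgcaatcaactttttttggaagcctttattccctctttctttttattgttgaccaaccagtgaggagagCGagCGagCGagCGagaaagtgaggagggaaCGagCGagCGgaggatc
Acbd7, chr2:3335918-3336167, plus strand: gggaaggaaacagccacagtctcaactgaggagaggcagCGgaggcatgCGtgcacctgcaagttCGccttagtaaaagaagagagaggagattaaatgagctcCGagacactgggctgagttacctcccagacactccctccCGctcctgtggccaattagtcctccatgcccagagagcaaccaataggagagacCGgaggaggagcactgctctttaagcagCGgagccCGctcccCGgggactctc
Hoxd9, chr2:74697513-74697762, plus strand: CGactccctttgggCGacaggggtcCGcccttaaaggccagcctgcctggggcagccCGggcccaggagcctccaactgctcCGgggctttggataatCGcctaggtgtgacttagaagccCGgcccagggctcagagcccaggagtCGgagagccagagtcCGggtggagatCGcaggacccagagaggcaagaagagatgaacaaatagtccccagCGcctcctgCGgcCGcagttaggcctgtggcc
Hoxd8, chr2:74704365-74704614, plus strand: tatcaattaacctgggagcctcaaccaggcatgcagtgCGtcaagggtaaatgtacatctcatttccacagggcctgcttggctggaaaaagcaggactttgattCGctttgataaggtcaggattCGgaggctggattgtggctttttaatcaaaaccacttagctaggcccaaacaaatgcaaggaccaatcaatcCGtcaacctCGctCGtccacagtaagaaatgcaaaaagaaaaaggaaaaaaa
Kif26b had 32 CG dinucleotides in this window, Hoxd9 had 13, Erbb4 had 12, Acbd7 had 9, Eomes had 8 and Hoxd8 had 6, beside a median of 6 (quartiles 2 and 16) over 32851 promoters of the table. Motifs were searched on both strands, and an E-box match (CANNTG) can include the longer CACGTG. The CCAAT box was found in Kif26b, Eomes, Acbd7 and Hoxd8, and in 33.8% of all promoters. GGGCGG, the core of a Sp1 site, was found in Kif26b and Hoxd9 and in 32.7% of all promoters. CANNTG was found in Kif26b, Acbd7, Hoxd9 and Hoxd8 and in 66.2% of all. None of the 6 windows held the TATA box TATAAA (12.4% of all), CACGTG (6.02%), the palindromic NRF1 motif (0.782%) or TTCAGCACC, the core of the site of the neuronal repressor REST (0.301%). The promoter table held 617 of the 916 member symbols (67.4%), too few for a comparison of the members' CpG content with other promoters.

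In the deposited lists, NSC H3K4me3 peaks covered 57.3 Mb at 63.2 reads per kb and neuronal H3K4me3 peaks 24.7 Mb at 39.9 reads per kb. For H3K27me3 the NSC list covered 173 Mb at 18.9 reads per kb and the neuronal list 146 Mb at 21.6. The neuronal H3K4me3 list held 14846 peaks against 30416 in NSCs, so a lost H3K4me3 peak below can reflect fewer calls in a less enriched library as well as less of the mark, and the 2 cannot be told apart. Of the markers chosen for the labelled cell types, the NSC markers Nes, Sox2, Fabp7, Hes5 and Olig2 had H3K4me3 and no H3K27me3 in both cell types. Of the neuron markers in the tables, Tubb3 and Dcx had H3K4me3 in neurons, Syp had neither mark there and Stmn2 had H3K27me3 without H3K4me3. Tubb3 was the sole marker that was a member.

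The members were small, weak peaks in domains of a very wide range of size. Their H3K4me3 width had a median of 1400 bp (400 to 4800) and their reads a median of 77 (18 to 520), against medians of 2200 bp and 224 reads for promoter peaks outside H3K27me3. The authors' fold over input had a median of 6.33 for members and 9.56 outside. The 911 domains that held them ran, per member, from 1600 to 239200 bp with a median of 10200 bp. The distance from a member to the nearer domain edge had a median of 2600 bp and reached 87200 bp, and 32 members touched an edge. A start site lay inside the peak for 842 members, and 113 members served start sites on both strands. Of 838 members with start sites on 1 strand, 529 had the domain reaching farther downstream, into the gene, than upstream, with medians of 5325.5 bp downstream and 4055 bp upstream.

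Just outside the limits of the rule lay peaks like the members and peaks with very high input reads. Of the latter, a 6200 bp peak without a gene symbol had 5416 reads over 3746 in input. Gm10800, which straddled a domain edge, had 1364 over 1247. The widest members were those of Sema5b, Etnk2 and Prmt8, each 4800 bp, and the next wider peak with a named gene, that of the LIM homeobox gene Lhx4, was 8400 bp. The peak assigned to Shh, the hedgehog ligand, was left out at 1042 bp from the start site and carried both marks in neurons. The peak of Susd4 was kept at 992 bp.

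Most members had H3K27me3 in neurons, and about as many lost H3K4me3 as kept it, the majority turning with the way peaks were compared. Kept and lost refer here to peaks being listed, with an overlap of at least 1 bp. A neuronal H3K27me3 peak overlapped 819 of the 954 members (85.8%, exact 95% interval 83.5 to 88.0). One overlapped 11.9% of all NSC H3K4me3 promoter peaks and 66.3% of all NSC H3K27me3 peaks. The 66.3% counts overlap anywhere on an H3K27me3 peak, of median width 4800 bp. The members' domains had a median of 10200 bp, and for 74 of the 954 members the domain had no neuronal H3K27me3 anywhere. A neuronal H3K4me3 peak overlapped 440 members (46.1%, 42.9 to 49.3), against 84.7% of all promoter peaks. Exact (Clopper-Pearson) intervals here and below cover counting error only. By outcome, 464 members (48.6%) had H3K27me3 alone in neurons, 355 (37.2%) had both marks, 85 (8.91%) had H3K4me3 alone and 50 (5.24%) had neither. Over all promoter peaks these shares were 5.88%, 6.05%, 78.6% and 9.41%. Under the stricter limit of a false discovery rate under 1e-20 in all lists there were 518 members, of which 18.2% kept H3K4me3, 68.2% had H3K27me3 and 8.88% had both. With equal numbers of peaks in the lists of each mark 54.2% (50.5 to 57.7) kept H3K4me3, and 50.3% did when a neuronal peak within 5000 bp counted.

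Losses of H3K4me3 were seldom shifts of a peak to a nearby place. Of the 514 members that lost it (53.9%, with 15.3% of all promoter peaks lost), 7 had a neuronal H3K4me3 peak within 1000 bp and 40 within 5000 bp, and the median gap to the nearest was 50001 bp. H3K27me3 was different: of the 135 members without it, 61 had a neuronal H3K27me3 peak elsewhere in the same domain and 32 had one within 1000 bp. Members with H3K27me3 in neurons kept H3K4me3 in 355 of 819 cases (43.3%, 39.9 to 46.8) and members without it in 85 of 135 (63.0%, 54.2 to 71.1). This direction was not particular to members. The shares were 72.5% with and 87.4% without neuronal H3K27me3 for straddling peaks. For promoter peaks outside NSC H3K27me3 they were 60.1% and 89.8%. H3K27me3 in neurons still enclosed the whole peak for 395 of the 464 members with that mark alone (85.1%) and for 243 of the 355 with both (68.5%).

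Among members with both marks, the 6 with most NSC H3K4me3 reads were at Kif26b, Efna5, Sema5b, Fam78b, Cdk6 and Socs2. Kif26b, which codes for an unconventional kinesin, had 520 reads in NSCs over 4200 bp (mm9 chr1:180457400-180461599) and 187 in neurons over 3800 bp. Efna5, a membrane-bound ligand of Eph receptors in axon guidance, had 411 reads in NSCs and 148 in neurons. Sema5b, a transmembrane semaphorin, had 395 and 137. In these 3 the neuronal peak had fewer reads, and neuronal H3K27me3 covered 100% of the Kif26b peak, 39.1% of the Efna5 peak and 58.3% of the Sema5b peak. Cdk6, a kinase that drives entry into S phase, went from 358 reads over 4400 bp to 49 reads over 1400 bp. Socs2, an inhibitor of cytokine signalling, went from 341 to 108 reads at the edge of a 5.8 kb domain.

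Members with H3K27me3 alone in neurons were led by Eomes, the T-box factor of intermediate progenitors in the cortex. Its NSC peak (mm9 chr9:118385200-118388599) had 253 reads over 34 in input, in an 8.6 kb domain. No neuronal H3K4me3 peak lay within 26601 bp of it, while neuronal H3K27me3 covered the whole peak and 95.3% of the domain. Notum, a secreted inhibitor of Wnt ligands, had 170 NSC reads and neuronal H3K27me3 over the whole peak. Kcnh3, a voltage-gated potassium channel, had 178 NSC reads and 90.9% of the peak covered. These genes were named for their high NSC reads. The medians of this outcome were 53.5 reads and 1400 bp, against 117 reads and 1800 bp for members with both marks.

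Members with H3K4me3 alone in neurons had the most NSC reads (median 140) and narrow domains (median 7200 bp). Erbb4, a receptor of neuregulins, had 349 NSC reads (mm9 chr1:69151400-69155399) and 376 in neurons, and its 18.2 kb domain had no neuronal H3K27me3 at all. Nrp2, a receptor of class 3 semaphorins, had 254 and 247 reads, over 1600 bp in NSCs and 6200 bp in neurons. Snap91, a clathrin assembly protein of synapses, had 278 and 97 reads. Input reads in these peaks were 56 in NSCs and 57 in neurons for Erbb4 and 25 and 77 for Nrp2, whose equal reads thus stood over more input in neurons.

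Members with neither mark in neurons had few reads (median 41) in the narrowest domains (median 5300 bp). Acbd7, a gene of the acyl-CoA binding family, had 111 reads in a 14 kb domain, 400 bp from its edge, and neuronal H3K27me3 still covered 48.6% of that domain away from the peak. Its nearest neuronal peaks lay 2201 bp (H3K4me3) and 2601 bp (H3K27me3) away, so it had both marks where a peak within 5000 bp counted. For Bves (112 reads) these distances were 149401 and 43801 bp.

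The wider the domain, the more members had H3K27me3 in neurons. With the members divided into quartiles at domain widths of 6, 10.2 and 18.75 kb, the share with neuronal H3K27me3 was 74.0% (68.0 to 79.4) in the narrowest domains, then 84.4%, 88.6% and 96.7% (93.5 to 98.5) in the widest. The share with neither mark went from 27 of 242 to 13 of 237, 9 of 236 and 1 of 239, and that with H3K4me3 alone from 36 to 24, 18 and 7. The intervals of the narrowest and the widest quartile did not overlap. Within the quartile of members whose domains had the lowest H3K27me3 fold, the share with neuronal H3K27me3 went from 67.0% in the narrowest to 95.7% in the widest domains, and within the highest-fold quartile from 85.7% to 99.1%. In the 2 quartiles between, it went from 73.0% to 96.5% and from 80.9% to 91.7%, so the share was higher in the widest than in the narrowest domains at each strength of the mark.

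H3K4me3 was also kept more often in wide domains: 36.4% (30.3 to 42.8), 46.4%, 47.9% and 54.0% (47.4 to 60.4) from the narrowest to the widest quartile. Members with both marks were 52, 86, 95 and 122 in these quartiles, while H3K27me3 alone changed less, from 127 to 114, 114 and 109. Members in wide domains had wider H3K4me3 peaks, with a median of 1400 bp in the narrowest and 1800 bp in the widest quartile. In the narrowest tertile of H3K4me3 peaks the kept share by domain quartile was 18.8%, 21.4%, 26.3% and 24.6%. In the middle tertile it was 41.9%, 52.3%, 51.4% and 50%, and in the widest tertile 60%, 70.8%, 64.0% and 71.4%. At like peak width the difference between the widest and the narrowest domains was thus smaller than over all members. In tertiles of the authors' H3K4me3 fold it was smaller in the lowest and not in the other 2: from narrowest to widest domains 25.9% and 38.7% were kept in the lowest, 26.6% and 57.9% in the middle and 49.5% and 77.2% in the highest. When at least 50% of the NSC peak had to be covered, the difference over all members was 7.93 points in place of 17.6, with an interval that includes 0 (-0.907 to 16.6), so it did not hold under that definition. At like NSC reads the values in the narrowest and the widest domains were 13.9% and 26.4% in the lowest tertile of reads, 24.2% and 49.2% in the middle and 70.9% and 85.1% in the highest. The size of the H3K4me3 peak went with the kept share more steeply than domain width did, at 22.3%, 48.7% and 67.3% from the narrowest to the widest tertile.

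**Figure D1:**
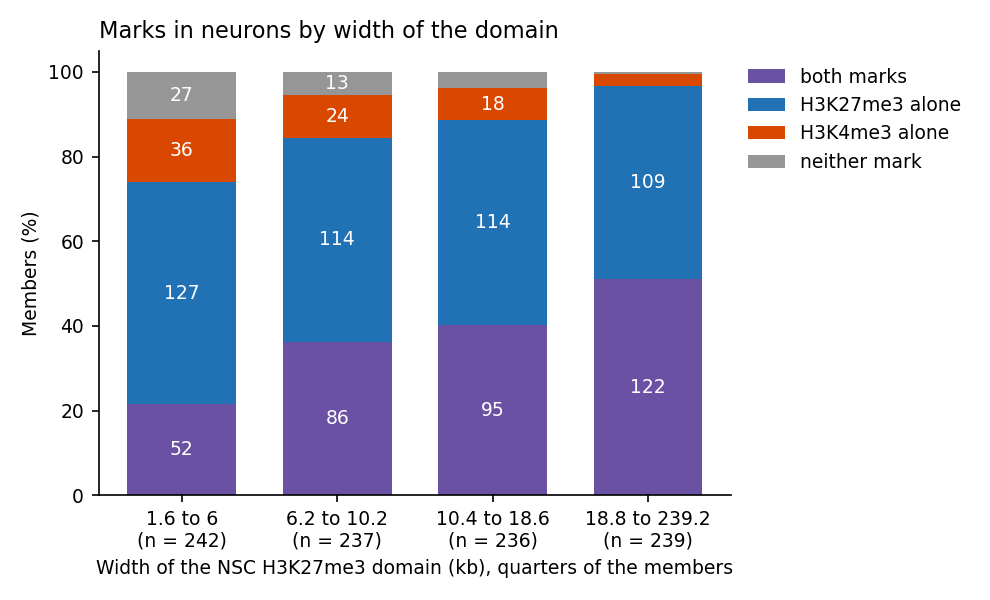
Bars show the percentage of members with each combination of marks in neurons, in quartile classes of the width of the NSC H3K27me3 domain, with the number of members printed where the segment is large enough. Members with neither mark went from 27 in the narrowest quartile to 1 in the widest, and members with both marks from 52 to 122.

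**Figure D2:**
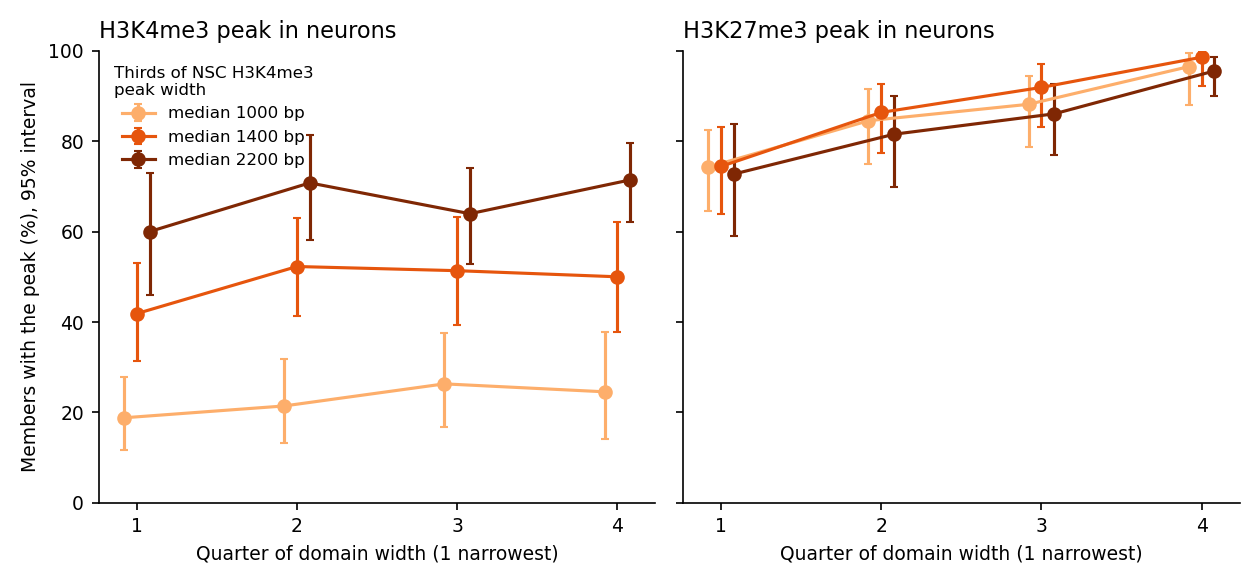
Points show the percentage of members with a neuronal H3K4me3 peak (left) or H3K27me3 peak (right) by quartile of domain width, one line for each tertile of NSC H3K4me3 peak width, with exact 95% intervals. The lines for H3K4me3 lie apart from each other by peak width, and the lines for H3K27me3 lie together and are higher in wider domains.

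Distance from the domain edge followed domain width closely (Spearman correlation 0.84 over 954 members, which share domains and libraries). By quartile of that distance, limits 1000, 2600 and 5200 bp, neuronal H3K27me3 was found in 76.0% (70.2 to 81.2), 83.0%, 90% and 94.9% (91.3 to 97.4) of members. H3K4me3 was kept in 41.9% (35.6 to 48.3), 40.7%, 48.7% and 53.6% (47.0 to 60.1). For H3K27me3 the shares were higher deeper in the domain, but less so within classes of domain width. Within the widest domains it was found in 12 of 12 members of the outermost class and 178 of 184 of the innermost, within the next in 12 of 15 and 47 of 53, and within the narrowest in 125 of 171 of the outermost class and 54 of 71 of the next. For H3K4me3 the intervals of the outermost and the innermost quartile overlapped, and the difference of 11.7 points was 2.34 when domains under 3000 bp apart were joined.

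Relative position, scaled from 0 at the domain centre to 1 at an edge, was nearly unrelated to domain width (Spearman correlation -0.03). H3K4me3 was kept in 45.2%, 49.5%, 43.0% and 46.2% of members from the innermost to the outermost class, with no order. H3K27me3 in neurons was found in 87.2%, 86.8% and 87.9% in the 3 inner classes and in 76.9% (68.7 to 83.9, n = 130) in the outermost. Of the members in that outermost class, 32 of 50 in the narrowest domain quartile had neuronal H3K27me3, against 29 of 30 in the widest. In the innermost class these counts were 60 of 78 and 76 of 80. In the quartiles between, the outermost and innermost counts were 20 of 28 and 76 of 87, and 19 of 22 and 81 of 91. The share was thus lower in the outermost class in every quartile of domain width but the widest, by little in the third (86.4% against 89.0%). The intervals overlapped in every quartile (49.2 to 77.1 against 66.0 to 85.7 in the narrowest). The difference between the outermost and innermost class turned direction, to 5.66 percentage points higher in the outermost with an interval that includes 0 (-9.27 to 12.5), when domains had to reach at least 1000 bp past both ends of the peak.

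**Figure D3:**
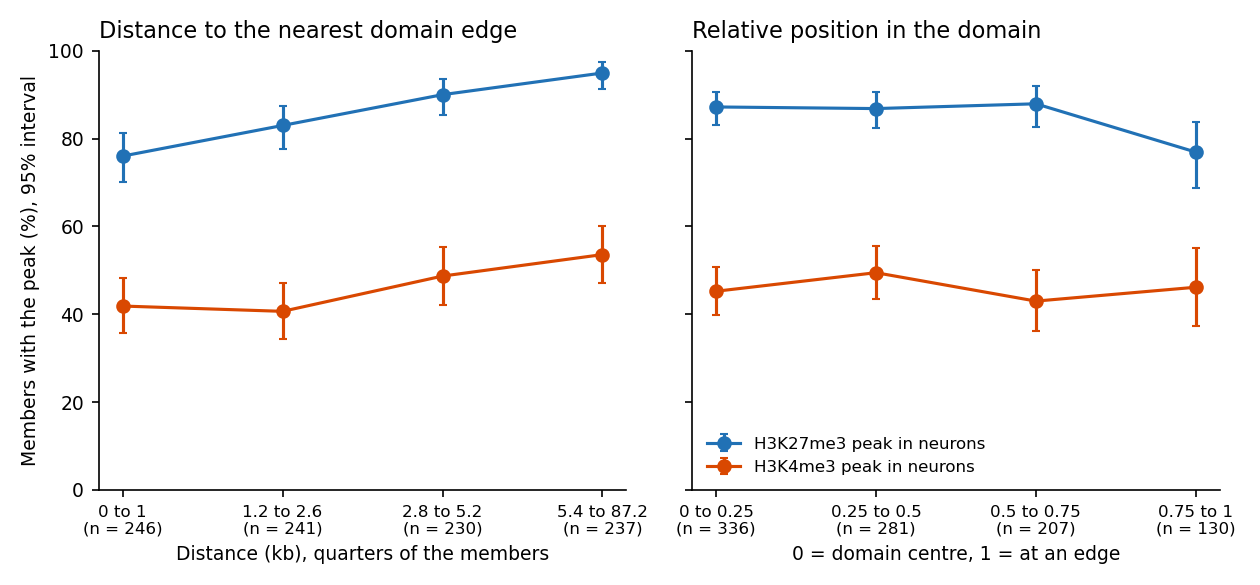
Points show the percentage of members with a neuronal H3K27me3 peak (blue) or H3K4me3 peak (orange), with exact 95% intervals, by distance to the nearest domain edge in kb (left) and by relative position (right). H3K27me3 went from 76.0% to 94.9% with distance, and by relative position it was lower in the outermost class alone, at 76.9%.

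Single members at the extremes of position showed both outcomes. Farthest from an edge were Hoxc9 (87200 bp) and Hoxc10 (78400 bp), which specify posterior segments, in a 239.2 kb domain. Hoxc9 had 39 NSC H3K4me3 reads and Hoxc10 had 32, and both had H3K27me3 alone in neurons. At the edge itself, Etnk2, an ethanolamine kinase gene, had 290 reads over 124 in input and kept both marks, and Rab6b, a neuronal GTPase of the Golgi, had 191 reads in a 4.0 kb domain and kept H3K4me3 alone with 70 reads.

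Over all members, neuronal H3K27me3 covered a mean of 78.2% of the H3K4me3 peak and 65.1% of the remaining domain. The peak was covered more than the rest for 649 members and less for 164, and members with H3K4me3 alone had 21.3% of the rest covered. In the narrowest domains these means were 68.6% and 48.8%, and in the widest 89.8% and 84.6%. The neuronal mark covered the peak fully for 638 members (66.9%). Domains met more than 1 neuronal peak for 432 members, 19 of them in the narrowest quartile and 205 in the widest. A wide domain has more room for several peaks. The whole neuronal H3K27me3 list also had more and shorter peaks, 36053 with a median of 3000 bp, against 26539 with a median of 4800 bp in NSCs. Whether these domains were split more than other H3K27me3 peaks was not tested. For 74 members the domain had no neuronal H3K27me3 anywhere.

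Members of 1 domain did not always share their H3K4me3 outcome. Of 29 domains that held more than 1 member (72 members), 6 kept H3K4me3 at all of them, 7 at none and 16 at some. Of these domains 24 held a pair, and some pairs were 2 peaks of 1 gene. One was Cacna1e, whose lost peak lay 201 bp from a neuronal H3K4me3 peak. Over all members 46.1% kept H3K4me3, so these counts do not show that neighbours differed more than any 2 members. The HoxD domain (mm9 chr2:74477000-74620399, 143.4 kb) held 8 members, the most of any. Evx2, a homeobox gene beside the cluster, went from 105 NSC reads to 22 in neurons, Hoxd13 from 61 to 22, Hoxd10 from 52 to 27 and Hoxd9 from 130 to 58, and all 4 kept both marks. Hoxd11 (43 NSC reads), Hoxd8 (103) and Hoxd1 (70) had H3K27me3 alone. Hoxd3 (141 NSC reads, 54 in neurons) lay 68400 bp from the nearer edge and was the one member there without H3K27me3 over its peak, although 77.5% of the domain was covered in neurons. Kept and lost peaks in this domain overlapped in NSC reads: Hoxd11 had the fewest of the 8 and was lost, and Hoxd8 was lost with more reads than Hoxd13 or Hoxd10.

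In the HoxA domain (107.4 kb), the Hoxa11 peak (52 NSC reads, 52 in neurons) and 1 of 2 Hoxa9 peaks (55 and 44) kept both marks. Both stood over more input in neurons, at 12 input reads in NSCs and 21 in neurons for Hoxa11 and 7 and 16 for Hoxa9. Hoxa13 (61 NSC reads), Hoxa10 (43) and the second Hoxa9 peak (31) had H3K27me3 alone. The domain of Fev, a factor of serotonin neurons, and Ihh, a hedgehog ligand, spanned 99.4 kb. Fev had 62 NSC reads and lost H3K4me3. Ihh had 26 reads over 600 bp in NSCs and 49 over 2200 bp in neurons with H3K27me3 present. Its input reads were 6 in NSCs and 26 in neurons, so the higher neuronal reads stood over more input.

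Many developmental regulators met the rule, and these sat in wide domains. Beside the 9.11% of all promoter peaks that were members, of 60 promoter peaks of patterning homeobox and Pax genes 39 were members, as were 30 of 44 for neuronal identity and bHLH factors, 26 of 42 for Sox, forkhead, T-box and Gata genes and 14 of 19 for Hox genes. Other lists also stood above the share of all promoter peaks. Members were 33 of 60 for secreted ligands, 37 of 87 for ion channels and transmitter receptors and 34 of 77 for synaptic and cytoskeletal genes. For axon guidance and adhesion genes they were 21 of 65, and for matrix genes 11 of 33. None of 19 promoter peaks of housekeeping genes and none of 14 of astrocyte and oligodendrocyte genes was a member. Together the 4 lists of transcription factors gave 109 members with a median domain of 24600 bp. Of these, 105 (96.3%, 90.9 to 99.0) had H3K27me3 in neurons and 46 (42.2%, 32.8 to 52.0) kept H3K4me3. The 707 members in no list had a median domain of 9000 bp, and 83.7% (80.8 to 86.4) of them had H3K27me3 in neurons and 46.1% H3K4me3. In the widest domain quartile the 2 groups stood close, at 71 of 72 and 127 of 134 with neuronal H3K27me3.

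All 39 patterning homeobox and Pax members kept H3K27me3 in neurons, and 16 of them kept H3K4me3. With both marks were Six2 (144 NSC reads, 71 in neurons), a factor of kidney development, and Barhl2 (162 and 33), a factor of retinal and spinal neurons. With H3K27me3 alone were Pitx3 (118 NSC reads) and Lmx1b (96), factors of midbrain dopamine neurons, and Emx1 (80), a factor of the cortex.

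Of 30 members among neuronal identity and bHLH factors, 14 kept H3K4me3 and 28 had H3K27me3. Neurog2, a proneural factor of glutamatergic neurons, had 272 NSC reads and 88 in neurons with H3K27me3 over the whole peak. The LIM homeobox gene Lhx1 (223 and 86 reads) also kept both marks. Neurod2, which acts after Neurog2 in cortical neurons, had 100 NSC reads and H3K27me3 alone, as did Lhx8 (142), a factor of cholinergic neurons. The 2 without H3K27me3 in neurons were Pou4f1 (243 and 79 reads), a factor of sensory neurons, and Bcl11b (177 and 63), a factor of corticospinal neurons.

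Of 26 members among Sox, forkhead, T-box and Gata genes, 10 kept H3K4me3 and 25 had H3K27me3. Foxa1, a pioneer factor of endoderm, went from 153 to 56 reads with both marks. Foxq1, another forkhead factor, had 124 NSC reads in a 19.6 kb domain and H3K27me3 alone. The mesoderm gene T had 35 reads and neither mark. Secreted ligands gave 33 members, of which 14 kept H3K4me3 and 32 had H3K27me3, among them the growth factor Tgfb1 (168 and 31 reads) and the Wnt ligand Wnt6 (158 and 77) with both marks and Fgf8 (105), a ligand of the midbrain organiser, with H3K27me3 alone.

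Members with roles in neurons themselves had a median domain of 11400 bp over 92 members of 3 lists, narrower than that of the transcription factors and close to the 10200 bp of all members. Of these, 78 (84.8%, 75.8 to 91.4) had H3K27me3 in neurons and 48 (52.2%, 41.5 to 62.7) kept H3K4me3. Axon guidance and adhesion genes gave 21 members, of which 14 kept H3K4me3 (66.7%, 43.0 to 85.4) and 17 had H3K27me3. Epha7, an Eph receptor, had 232 and 133 reads with both marks. The Eph receptor Ephb1 (208 and 77), the cadherins Pcdh15 (143 and 79) and Cdh6 (120 and 49) joined Nrp2 with H3K4me3 alone. Reln, the extracellular guide of cortical layering, had 96 NSC reads and H3K27me3 alone. The interval of this list's kept share included the 46.1% of all members.

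Synaptic and cytoskeletal genes gave 34 members, of which 17 kept H3K4me3 and 28 had H3K27me3. H3K4me3 alone was found at Ina, a neurofilament subunit (175 and 109 reads), Pclo, a scaffold of the active zone (135 and 83), and Olfm1, a secreted glycoprotein (161 and 62), beside Snap91 and Tubb3. Rims1, another active zone scaffold, kept both marks with 195 and 143 reads. Syt1, a calcium sensor of vesicle release, had 115 NSC reads and H3K27me3 alone, and Shank1, a postsynaptic scaffold, had 89 and neither mark. Ion channel and transmitter receptor genes gave 37 members, of which 17 kept H3K4me3 and 33 had H3K27me3. The pacemaker channel Hcn4 (221 and 59 reads) kept both marks, the inward rectifier Kcnj12 (178 and 54) kept H3K4me3 alone and the sodium channel subunit Scn3b (48) had neither.

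Genes of the matrix gave 11 members, 4 with H3K4me3 and 10 with H3K27me3 in neurons, among them the integrin subunit Itgb5 (217 and 49 reads) with both marks and the laminin chain Lama1 (96) with H3K27me3 alone. Among 44 promoter peaks of cell cycle and replication genes, Cdk6 and Cdkn1c were members (4.55%, beside 9.11% of all promoter peaks), and both kept both marks. Cdkn1c, an imprinted inhibitor of cyclin-dependent kinases, had 94 NSC reads and 21 in neurons.

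At members that kept H3K4me3, the neuronal peak was usually smaller. The median width went from 1800 bp in NSCs to 1400 bp and the median reads from 120 to 41. Of the 440, 312 were narrower, 41 equal and 87 wider in neurons. The neuronal peak was wider for 28 of 85 members with H3K4me3 alone (32.9%) and for 59 of 355 with both marks (16.6%). Over all kept members the share was 19.8%, between 10.4% of kept peaks outside H3K27me3 and 23.6% of kept straddling peaks. The median ratio of neuronal to NSC reads was 0.362 for members, 0.325 for straddling peaks and 0.307 outside H3K27me3.

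A small group had more reads in neurons. The neuronal reads were above the NSC reads at 32 of 440 kept members (7.27%, 5.03 to 10.1), at 5 of 297 kept straddling peaks (1.68%) and at 34 of 8134 kept peaks outside H3K27me3 (0.418%). Kept members had a median of 120 NSC reads and kept peaks outside 239. The part of this in the difference was not tested. The 32 peaks were mostly wider in neurons (30 of 32), and reads per kb were higher in neurons at 9 of them. Input reads also differed, and the ratio of immunoprecipitated to input reads was higher in neurons at 15. The genes named here were chosen after their values were seen, as those with the most neuronal reads. After Erbb4 came Khdrbs2, an RNA-binding splicing factor of neurons (81 reads in NSCs, 211 in neurons, over input reads of 8 and 60), and Celf4, another neuronal RNA-binding protein (91 and 191). Tubb3, the beta-tubulin used as a neuronal marker, went from 58 reads over 1400 bp to 140 over 3800 bp, with input reads of 6 and 48, and its 5.6 kb domain had no H3K27me3 in neurons. Slitrk1, a synaptic adhesion protein (89 and 128), and Cacnb3, a calcium channel subunit (47 and 105), also had H3K4me3 alone. Cadm3, a neural adhesion protein, had 34 and 122 reads, and Kcna1, a potassium channel, 44 and 88, and both still had H3K27me3 over the whole NSC peak. Of these 32 members, 12 had H3K4me3 alone, 20 had both marks and 10 lay on chromosome 1.

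**Figure D4:**
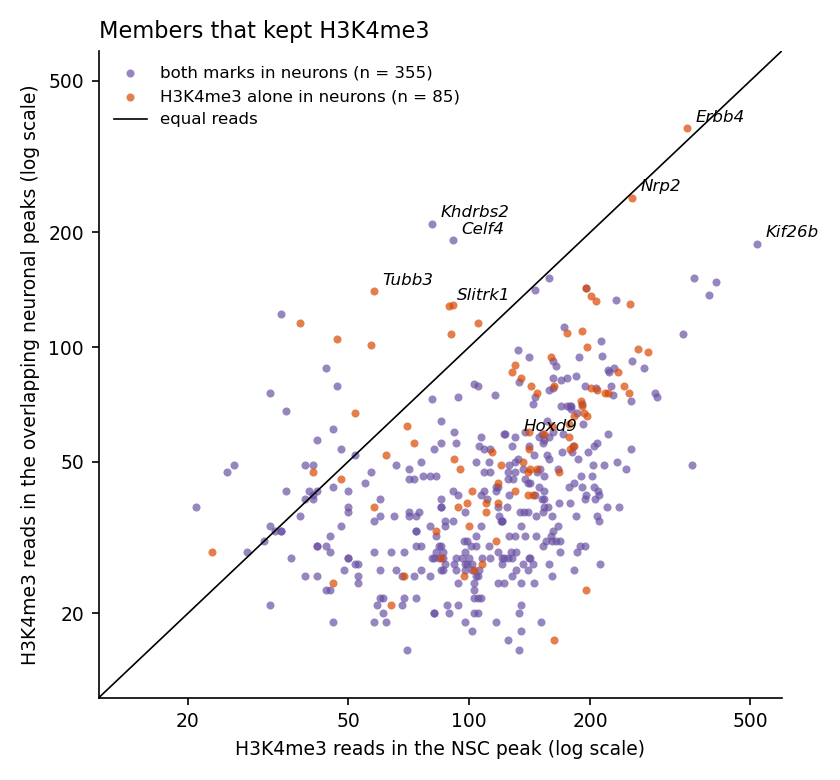
Each point is 1 of the 440 members that kept H3K4me3, placed by the reads in its NSC peak and in the overlapping neuronal peaks on log scales, and coloured by the marks in neurons. Most points lie under the line of equal reads, and 32 lie above it, Khdrbs2, Celf4 and Tubb3 among them.

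Against other promoter peaks of the same width, members kept H3K4me3 less often. From the narrowest to the widest of 6 width classes the kept shares were 9.17%, 28.6%, 49.0%, 62.7%, 73.8% and 69.0% for members and 26.8%, 58.7%, 81.9%, 93.01%, 96.5% and 96.9% for peaks outside H3K27me3. Weighted to the members' width classes, peaks outside were kept at 74.6%, which is 28.5 percentage points above the members, and straddling peaks at 67.7%. The difference was 27.04 points in classes of the authors' fold. It was 4.71 points (1.48 to 7.90, counting error of the members' share only) in classes of NSC H3K4me3 reads, an alternative chosen after the data were seen. With up to 40 reads, 11.1% of members and 14.4% of peaks outside were kept, with over 40 to 60 reads 28.7% and 24.7%, with over 60 to 90 reads 37.0% and 39.3%, with over 90 to 130 reads 59.4% (51.9 to 66.5) and 72.9% (69.6 to 76.1), with over 130 to 200 reads 86.3% (80.05 to 91.2) and 94.3% (93.2 to 95.2), and with over 200 reads 94.5% (84.9 to 98.9) and 99.3% (99.1 to 99.5). At equal NSC reads, then, the intervals of members and of peaks outside H3K27me3 overlapped up to 90 reads, and above 90 reads members were kept less often, with intervals that did not overlap.

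**Figure D5:**
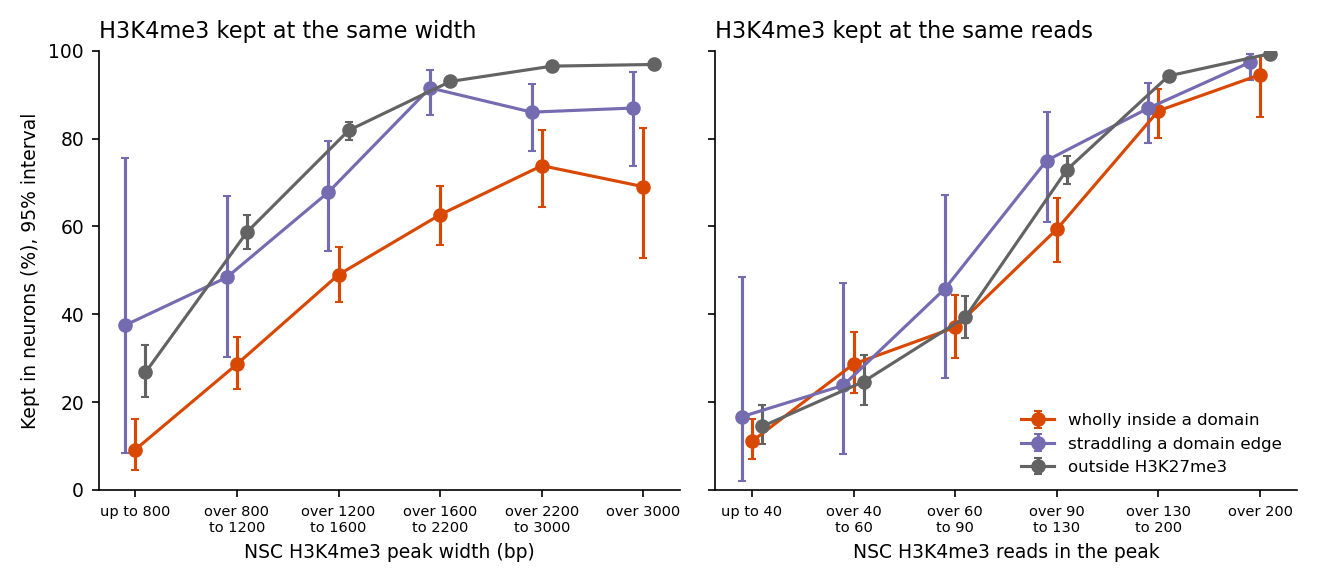
Points show the percentage of NSC H3K4me3 promoter peaks kept in neurons, with exact 95% intervals, for members (orange), peaks straddling a domain edge (purple) and peaks outside H3K27me3 (grey), by NSC peak width in bp (left) and by NSC reads in the peak (right). Members lie far below the grey points in the same class of width and close to them in the same class of reads.

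Chromosome 1 stood apart. H3K4me3 was kept at 69 of its 93 members (74.2%, 64.1 to 82.7) and at 371 of 861 elsewhere (43.1%, 39.8 to 46.5), and among the other 18 chromosomes with at least 20 members the share ran from 12.5% on chromosome 19 to 64.0% on chromosome 14. Input reads per kb in H3K27me3 peaks of chromosome 1 were raised, at 1.46 times the autosomal median in NSCs and 1.48 times that of neurons, and the next highest autosome stood at 1.13 and 1.15 times. In H3K4me3 peaks chromosome 1 stood at 1.39 and 1.40 times, and another autosome was as high, at 1.39 and 1.45 times. Members of chromosome 1 had a median of 93 NSC H3K4me3 reads, against 76 elsewhere. Peaks outside H3K27me3 were kept at 89.7% on chromosome 1 and 88.8% elsewhere. The part of the raised reads in the result was not tested. Erbb4, Nrp2, Khdrbs2, Cadm3, Kif26b and the Fev and Ihh domain lie on this chromosome.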

How the data were processed

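Chromatin of 1 NSC and 1 neuron preparation was sequenced in 6 libraries. Per the submitters' processing notes, FastQC, Bowtie, SAMtools and SICER were used, on mm9; their versions and parameters are not stated there. For each of the 4 immunoprecipitated libraries the authors deposited a peak list with counts of immunoprecipitated and input reads, p-values, a false discovery rate (FDR, under 0.001 in all lists) and a fold over input, which is a ratio of the read counts. Peak bounds move in steps of 200 bp. Start sites came from the positions in the 4 deposited gene tables, which hold 18778 genes, 4178 without a symbol, and lean towards genes near peaks. The authors' counts of tags in these tables were not used. Total depth is unknown, since the files used here give reads inside peaks, and intervals cover counting error only.

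The members were found by the rule with Python 3.11.15, pandas 2.3.3 and numpy 2.4.6. A mark was called present in neurons when any neuronal peak overlapped the NSC peak by at least 1 bp. Exact intervals at 95% came from scipy 1.17.1. Overlap, distance and class steps were tested on simulated data. Members, gene lists (1030 entries, 869 found in the tables, 11 of them through an older symbol) and tests were chosen with earlier results of these data known. Named members are those with most NSC H3K4me3 reads in each outcome and in each list and outcome, those in the 5 widest domains, those farthest from and nearest to an edge, and those at the limits of the rule. The 61 members without a symbol were counted, not named. Alternatives were the start-site distance, the overlap, the FDR limit, list length, the domain bounds, 1 member per domain, chromosome 1 left out and fixed classes. Classes of reads and an input limit were added after seeing the data.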

Additional observations from a re-analysis of the deposited data

How the results depend on the processing

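No paired analysis was possible because each group had 1 sample. Of 13 alternatives, the following moved a share past the interval of its main value. The main shares are 46.1% with H3K4me3, 85.8% with H3K27me3 and 37.2% with both marks in neurons. With at least 50% of the NSC peak covered they were 37.0%, 81.0% and 25.9%, and the H3K4me3 difference between widest and narrowest domains was 7.93 points in place of 17.6, with an interval that includes 0. With absence meaning no neuronal peak within 5000 bp they were 50.3%, 92.98% and 45.8%. With an FDR under 1e-20 in all lists there were 518 members in place of 954, and the shares were 18.2%, 68.2% and 8.88%, and the H3K27me3 differences were 38.2 points by domain width (22.7) and 34.4 by edge distance (18.9). With equal numbers of peaks per mark they were 54.2%, 83.4% and 42.2%. With domains at least 1000 bp past both ends, H3K27me3 was found at 89.2%, and its difference between the outermost and innermost class of relative position was 5.66 points in place of -10.3, with an interval that includes 0. With domains under 3000 bp apart joined, it was found at 82.9%, the H3K27me3 difference by domain width was 16.1 points, and the H3K4me3 difference by edge distance was 2.34 in place of 11.7. In classes of NSC reads, the gap between peaks outside H3K27me3 and members was 4.71 points in place of 28.5; this and the restriction to members with under 50 input reads (11 left out) were chosen after seeing the data. Another 76 shares and differences stayed within the main interval, those without chromosome 1 and with 1 member per domain among them, and 9 other numbers of members ran from 747 to 1051. The cause of these changes was not tested. With 1 library per group, no spread between preparations is known, and depth outside peaks is unknown. The H3K4me3 lists held no peak under 14 reads in NSCs and 13 in neurons.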
